A study of Mus musculus with 4 samples.

Results

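Retinoid metabolism and response is represented here by 9 genes: the retinol dehydrogenases Adh1 and Adh7, the retinal dehydrogenases Aldh1a1, Aldh1a2 and Aldh1a3, the binding proteins Crabp1 and Crabp2, and the receptors Rarb and Rarg. They had 13 single-gene probe sets among the 34945 that stand for 18193 genes on the arrays. The genes were chosen by their place in the pathway and on measured values, since Adh1 was known to be strongly lower after deletion in vivo. In vivo differences are therefore a description of these arrays, and no test is made on them. The study compared dermal fibroblasts with and without the gene Rbpj, which encodes RBP-J kappa, the nuclear partner of cleaved Notch receptors.

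Each of 4 groups had 1 Affymetrix mouse array, hybridised with biotin-labelled cRNA made from poly(A) RNA. The in vitro deleted group is labelled Adeno Cre, for cells given a Cre-bearing adenovirus. Its control is labelled Adeno GFP, for cells that received a GFP virus. The in vivo deleted group is labelled ColI Cre x RBP loxp-loxp, a Cre transgene crossed to floxed Rbpj. Its control, RBP loxp-loxp, carries the floxed alleles without Cre. All 4 are labelled fibroblasts on a C57BL/6 background. The age and number of animals, the genotype of the cultured cells, the cells in which the ColI transgene is active and any culture of the in vivo cells are details not given in the sources used here. With 1 array per group no difference has a replicate check, and the number of arrays limits the precision.

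Retinol is oxidised to retinal by alcohol and short-chain dehydrogenases, and retinal is oxidised irreversibly to retinoic acid by the Aldh1a enzymes. Retinoic acid binds nuclear receptors of the RAR family, which pair with RXR receptors on DNA, while CRABP proteins carry it in the cytosol and CYP26 enzymes degrade it. In skin, retinoids are known for their effects on epidermal differentiation, hair follicles and dermal matrix.

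Sequences before the transcription starts of 3 members are shown because these genes frame the result: Adh1, the member with the largest difference; Adh7, its neighbour on the chromosome, whose probe sets disagreed in vivo; and Crabp1, which was lower in both deleted arrays. Each is the 250 bases before the start in RefSeq (GRCm38.p6), on the plus strand, at chr3:138277335-138277584, chr3:138217523-138217772 and chr9:54764498-54764747. Capitals mark TGGGAA, the core that RBP-J kappa recognises, searched on both strands.
Adh1: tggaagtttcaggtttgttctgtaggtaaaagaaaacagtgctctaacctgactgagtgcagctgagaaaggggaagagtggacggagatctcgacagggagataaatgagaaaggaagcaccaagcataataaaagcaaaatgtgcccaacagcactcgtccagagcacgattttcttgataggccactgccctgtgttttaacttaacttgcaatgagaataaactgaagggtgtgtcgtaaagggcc
Adh7: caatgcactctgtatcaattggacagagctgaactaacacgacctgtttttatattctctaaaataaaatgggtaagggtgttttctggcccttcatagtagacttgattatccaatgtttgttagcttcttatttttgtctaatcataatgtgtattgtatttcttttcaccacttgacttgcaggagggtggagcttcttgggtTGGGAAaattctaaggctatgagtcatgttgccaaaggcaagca
Crabp1: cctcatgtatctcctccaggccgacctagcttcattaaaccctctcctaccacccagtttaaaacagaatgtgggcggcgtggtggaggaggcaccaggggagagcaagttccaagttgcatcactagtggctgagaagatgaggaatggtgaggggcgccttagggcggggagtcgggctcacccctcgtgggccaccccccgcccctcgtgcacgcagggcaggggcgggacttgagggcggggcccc

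RefSeq gave such windows for 7 of the 9 genes, 9 windows in all. TGGGAA was found in 1 of these 9 windows, that of Adh7, and in 21.6% of the 32851 windows of all genes. The longer form GTGGGAA was in 0 of the 9 and in 5.42% of all windows. A match is a description of the letters and does not show binding.

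The receptor gene Rarb and the degrading enzyme gene Cyp26a1 are textbook targets of retinoic acid, and their windows are shown because both hold a DR5 element. This element is a pair of hexamers (AGGTCA or AGTTCA or GGGTCA or GGTTCA) in the same orientation with 5 bases between them. It was searched on both strands and found in 0.0883% of all windows. The Rarb stretch lies on the minus strand at chr14:16575493-16575549, and the Cyp26a1 stretch on the plus strand at chr19:37697756-37697807, with its hexamers in reverse orientation. Capitals mark the hexamers.
Rarb: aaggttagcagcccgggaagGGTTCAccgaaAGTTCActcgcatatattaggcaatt
Cyp26a1: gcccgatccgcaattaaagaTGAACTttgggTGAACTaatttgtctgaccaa

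The arrays held the fibroblast signal that their labels name. All 12 fibroblast markers were above the level cutoff on every array, and their median difference was -0.06 in vivo and 0.18 in vitro (log2, deleted minus control), with Dpt (-1.30), Lum (-1.06) and Pdgfra (-0.59) the most different in vivo. The cutoff, a log2 value of 5.28, is the 40th percentile of the genes' mean levels, and a value under it is close to background. Most keratinocyte markers were higher in the in vivo deleted array. Of the 15 with a probe set, counted without the cutoff, 10 were at least 2-fold higher, led by Krt6a (5.29), Krt14 (5.00) and Dsp (4.75). Trp63 (-0.45), Krt10 (-0.33), Krt1 (-0.19) and Krt15 (-0.19) lay below 0, of which only Krt10 had a mean above the cutoff. Epcam was at 0.07 on its brighter probe set and 2.62 on the other. The summed signal of the 15 was 9.53 in the in vivo control and 12.86 in the deleted array (log2 of the sum), against 10.55 and 9.97 in vitro. Skeletal muscle markers were also higher in the in vivo deleted array, 9 of 12 by at least 2-fold. Among them were Actc1 (2.99), Mylpf (2.49) and Tnnc2 (2.37). The list had summed signals of 9.80 and 11.84 in vivo against 9.21 and 8.96 in vitro. The in vivo results below all come from this pair, and the part of keratinocyte and muscle RNA in them was not tested. In such bulk RNA, fewer cells of a type and less RNA per cell cannot be told apart. Rbpj itself differed by -0.10 to -0.83 over its 3 probe sets in vivo and by 0.10 to -1.34 in vitro.

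Adh1 encodes an alcohol dehydrogenase that oxidises retinol as well as ethanol. Its only probe set, 1416225_at, gave log2 values of 9.84 in the in vitro control, 8.99 in the in vitro deleted array, 8.94 in the in vivo control and 5.34 in the in vivo deleted array. The first 3 values were well above the cutoff and the in vivo deleted array stood just over it. The log2 difference was -3.60 in vivo, 12.1-fold lower, and only 2 of the 10916 genes analysed had a more negative one. In vitro it was -0.84, 1.79-fold lower, a value that 2.95% of genes lay below. Both arrays with the deletion were thus lower than their own control, and the in vivo difference minus the in vitro one was -2.76 on the log2 scale. The in vitro control had a larger excess of 3′ over 5′ control signal than its deleted array, 1.0 against 0.02 for Gapdh. The part of RNA integrity in the in vitro value was not tested. Alternatives in normalization, offset and filter gave -3.60 to -3.18 in vivo and -0.88 to -0.78 in vitro. A filter alone does not alter a gene's difference.

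Adh7, a retinol-active alcohol dehydrogenase of epithelia, lies next to Adh1 on chromosome 3 in RefSeq. Its brighter probe set, 1450110_at, read 9.18 and 9.75 in vitro (control, deleted) and 8.09 and 8.48 in vivo. Its other probe set, 1421058_at, read 7.96 and 8.20 in vitro and 5.64 and 4.67 in vivo. The probe sets thus disagreed in vivo, at 0.40 and -0.96 (log2 difference), and shared a direction in vitro, at 0.57 and 0.23. No direction in vivo is read for Adh7, and the probe set at -0.96 ended under the cutoff.

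**Figure D1:**
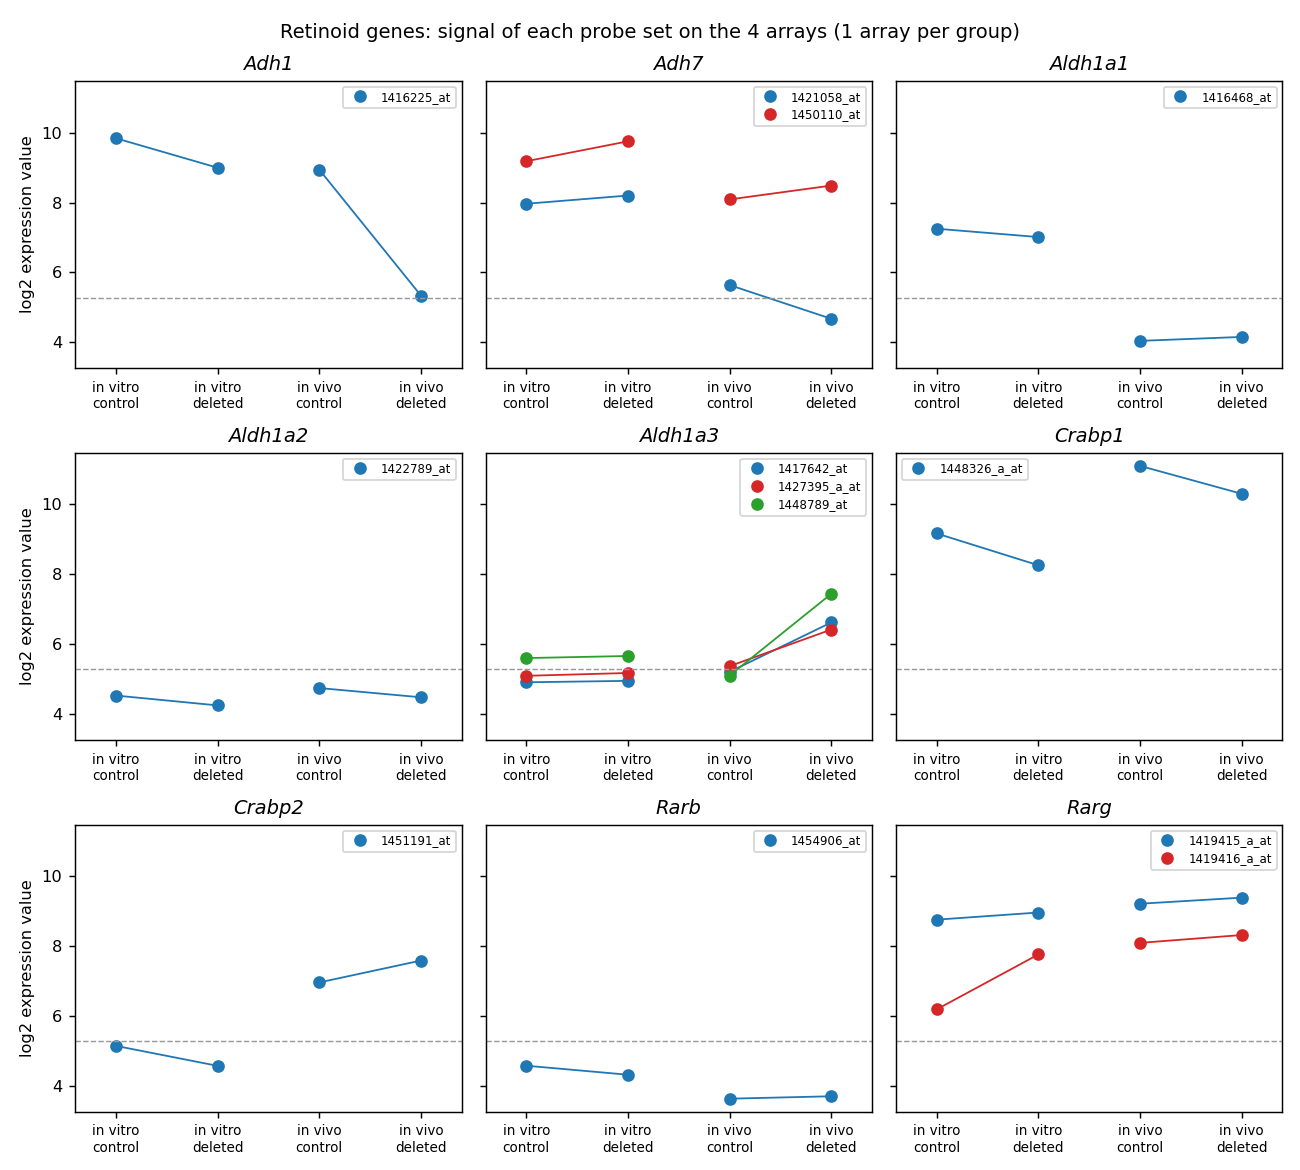
Log2 expression value (vertical axis) of every single-gene probe set of the 9 genes on the 4 arrays (horizontal axis, 1 array per group), with lines joining each control to its deleted array and a dashed line at the level cutoff of 5.28. Adh1 is at 8.94 and 5.34 in vivo, the 3 probe sets of Aldh1a3 end higher in the in vivo deleted array, and 1 probe set of Rarg is low in the in vitro control alone.

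The Aldh1a enzymes make retinoic acid, and the arrays held clear signal for only some of them. Aldh1a3, found in epithelia including epidermis, had 3 probe sets. Probe set 1448789_at read 5.60 and 5.66 in vitro (control, deleted) and 5.11 and 7.44 in vivo. Probe set 1417642_at read 4.91 and 4.95 in vitro and 5.21 and 6.62 in vivo, and 1427395_a_at read 5.10 and 5.18, then 5.37 and 6.42. The in vivo deleted array was the highest of the 4 on all 3 probe sets, while the other 3 arrays stayed near the cutoff. The in vivo log2 differences were 2.34, 1.41 and 1.05 (5.06-fold, 2.66-fold and 2.07-fold higher), and since most control values were under the cutoff the size is not exact. In vitro the differences were 0.06, 0.04 and 0.08. Aldh1a3 was higher in the same array as most keratinocyte markers and the skeletal muscle markers above, and their part in its difference was not tested.

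Aldh1a1 read 7.25 and 7.01 in vitro (control, deleted) and 4.04 and 4.16 in vivo on its only probe set, 1416468_at. It had signal in both cultures and lay under the cutoff in both in vivo arrays, so the in vivo difference of 0.11 compares background values. The in vitro difference was -0.24. Its RefSeq neighbour Aldh1a7, a close paralogue named after its values were seen, had a like pattern at 8.31 and 7.96 in vitro, then 4.24 and 4.48 in vivo; cross-hybridisation between such copies was not tested. Aldh1a2, the main retinal dehydrogenase of the early embryo, was under the cutoff on all arrays, at 4.53 and 4.25 in vitro, then 4.75 and 4.48 in vivo.

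Crabp1 and Crabp2 encode small cytosolic carriers of retinoic acid, and their values did not follow one another. Crabp1 read 9.17 and 8.26 in vitro (control, deleted) and 11.10 and 10.30 in vivo on probe set 1448326_a_at. Both deleted arrays were below their control, with log2 differences of -0.91 in vitro (1.88-fold lower) and -0.80 in vivo (1.74-fold lower). Of all genes analysed 1.91% lay below the in vitro value and 6.23% below the in vivo one. The part of the in vitro control's 3′ over 5′ excess in the in vitro value was not tested. Crabp2, a carrier that delivers retinoic acid to the nucleus and is itself induced by it, read 5.15 and 4.58 in vitro and 6.96 and 7.59 in vivo on probe set 1451191_at. Its difference was -0.57 in vitro, where both values were under the cutoff, and 0.63 in vivo. The in vivo difference of Crabp2 lay above that of 92.8% of genes, in the pair where most keratinocyte markers and the skeletal muscle markers were also higher.

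Among the receptors, Rarg, the main retinoic acid receptor of epidermis, had signal on every array. Probe set 1419415_a_at read 8.76 and 8.96 in vitro (control, deleted) and 9.21 and 9.39 in vivo. Probe set 1419416_a_at read 6.19 and 7.76 in vitro and 8.09 and 8.32 in vivo. In vivo both probe sets differed little between the arrays, at 0.17 and 0.22. In vitro they differed by 0.20 and 1.57, and the second value comes from a low reading in the in vitro control. That array also had the largest excess of 3′ over 5′ control signal, 1.0 for Gapdh and 1.11 for Actb, where the other 3 arrays had 0.02 to 0.14 and 0.15 to 0.41. The part of RNA integrity in the Rarg value was not tested. Rarb, whose DR5 element is printed above, was under the cutoff throughout, at 4.58 and 4.32 in vitro, then 3.64 and 3.71 in vivo on probe set 1454906_at.

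Counted by the brightest probe set, 7 of the 9 genes passed the cutoff, and Aldh1a2 and Rarb did not. In vivo, 1 of the 7 was at least 2-fold lower (Adh1), against 3.81% of the 10916 genes analysed, and 1 was at least 2-fold higher (Aldh1a3), against 2.81%. Since the choice of genes used this contrast, nothing is read from these shares. In vitro, 0 of the 7 passed 2-fold downward and 0 upward, against 1.15% and 0.788% of all genes, and no replicated test stands behind these counts. The median difference of the 7 was 0.17 in vivo and -0.24 in vitro, with medians over all genes of -0.03 and -0.06. As a technical yardstick, probe sets of 1 gene differed with a pooled SD of 0.28 in vivo and 0.48 in vitro (log2, over 4575 genes with several probe sets above the cutoff). By the brightest probe set, Adh1, Aldh1a3, Crabp1 and Crabp2 lay farther from 0 than that SD in vivo, where Adh7 is not read, and in vitro Adh1, Adh7, Crabp1 and Crabp2 did. The SD covers probe sets of 1 array pair and does not stand for replicate error.

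**Figure D2:**
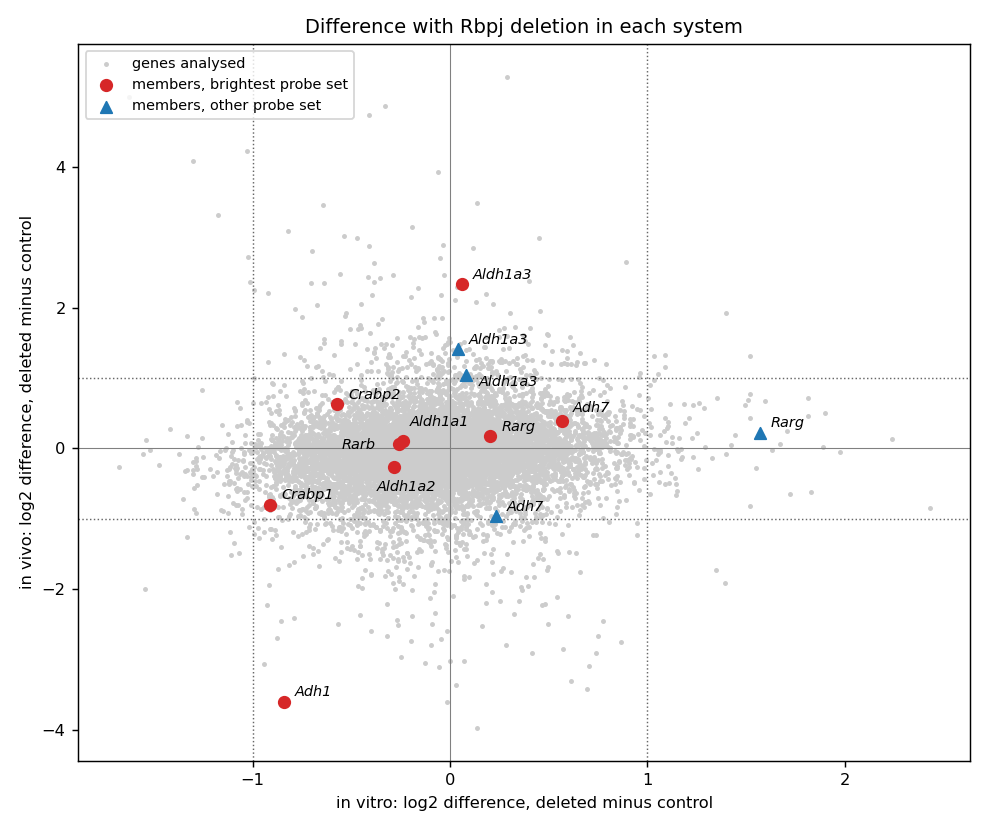
Log2 difference, deleted minus control, in vitro (horizontal axis) against in vivo (vertical axis), with grey points for the 10916 genes analysed, red circles for the brightest probe set of each of the 9 genes and blue triangles for their other probe sets. Dotted lines mark 2-fold. Adh1 lies at -3.60 in vivo and -0.84 in vitro, Crabp1 is below 0 on both axes, and the 3 Aldh1a3 points are raised on the vertical axis alone.

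The controls of the 2 systems differed at several of these genes. Crabp1 was 3.81-fold higher and Crabp2 3.51-fold higher in the in vivo control than in the in vitro control. Aldh1a1 was 9.23-fold lower and Adh7 2.13-fold lower there (5.01-fold on its other probe set). The sizes for Crabp2 and Aldh1a1 are not exact, since Crabp2 in the in vitro control and Aldh1a1 in the in vivo control lay under the cutoff. Rarg was 1.37-fold higher in the in vivo control on its brighter probe set and 3.74-fold higher on the other, which was low in the in vitro control. Counted by the brightest probe set, 2 of the 7 genes passed 2-fold upward and 2 downward, against 4.54% and 5.82% of all genes. Markers of some other cell types were also lower in the in vivo control. Counted without the cutoff, 8 of 15 keratinocyte markers (median -1.05), 2 of 8 macrophage markers (median -0.27) and 3 of 6 adipocyte markers (median -1.07) were at least 2-fold lower there, among them Adipoq (11.15 in vitro, 8.63 in vivo) and Fabp4 (11.79 and 9.91). Of the 12 fibroblast markers 2 were at least 2-fold lower too, Dpt (-2.29) and Lum (-2.11), with a median of -0.01 over the list. Skeletal muscle markers mostly went the other way, with 2 of 12 at least 2-fold higher, 1 lower and a median of 0.62. The excess of 3′ over 5′ signal was 1.0 for Gapdh and 3.16 for Pcx in the in vitro control. It was 0.14 and 1.10 in the in vivo control. The part of these markers and of RNA integrity in the members' differences was not tested.

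The rest of the pathway was read from 6 further lists, which together held 53 other genes. Of these 47 had a probe set and 28 passed the cutoff. In vivo 4 of the 28 passed 2-fold upward and 1 downward, beside 2.81% and 3.81% of all genes. In vitro 0 passed it upward and 1 downward, beside 0.788% and 1.15%. The median difference was 0.02 in vivo and -0.23 in vitro, with -0.03 and -0.06 over all genes.

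Among the other oxidoreductases, Dhrs3, a retinal reductase that returns retinal to retinol and is induced by retinoic acid, was the 1 gene to pass 2-fold in vivo. It read 8.58 and 8.29 in vitro (control, deleted) and 7.39 and 5.47 in vivo, and the in vivo deleted array was the lowest of the 4. The log2 difference was -1.92 in vivo (3.77-fold lower) and -0.29 in vitro. The in vivo deleted value stood just over the cutoff, so the in vivo size is not exact. Dhrs4, another retinal reductase, differed by -1.30 in vitro on its brighter probe set and by -0.35 on the other. The dehydrogenase Adh5, which mainly handles formaldehyde bound to glutathione, had the brightest signal of this list and differed by 0.03 in vivo and -0.23 in vitro. Of the 8 analysed genes of this list, 4 lay above 0 and 4 below in vivo.

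Cyp26b1, an enzyme that degrades retinoic acid, read 7.92 and 7.24 in vitro (control, deleted) and 7.27 and 8.43 in vivo. Its difference was 1.16 in vivo (2.23-fold higher) and -0.68 in vitro. Cyp26a1, the other gene with a printed DR5 element, had a mean below the cutoff and read 4.95, 4.81, 5.61 and 5.04 in the same order. With Rarb and Cyp26a1 both below the cutoff, neither gene with a DR5 element was read for a direction.

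Of the binding and transport genes, Rbp4, the serum carrier of retinol, read 8.01 and 7.28 in vitro (control, deleted) and 6.30 and 7.47 in vivo, a difference of 1.18 in vivo (2.26-fold higher) and -0.73 in vitro. Fabp5, which binds fatty acids and can carry retinoic acid, differed by 0.20 in vivo and -0.23 in vitro. Among the 3 analysed genes of storage, uptake and carotenoid cleavage none reached 2-fold in either system. Scarb1, a lipoprotein receptor that takes up carotenoids, differed by -0.15 in vivo and 0.22 in vitro on its brightest probe set. Its other probe sets gave -0.21 and -0.05 in vivo and -0.28 and -0.20 in vitro, so no direction in vitro is read for Scarb1. None of the 9 analysed receptor and cofactor genes reached 2-fold in either system. Their in vivo differences ran from -0.85 to 0.11. The receptor Rxra was at -0.29 in vivo and -0.17 in vitro on its brightest probe set. Another Rxra probe set above the cutoff gave 0.27 and 0.55, so no direction is read for Rxra.

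Genes listed as retinoic acid targets did not share a direction in vivo. Of 8 analysed, 3 passed 2-fold upward (Rarres2, Tgm2 and Cyp26b1) and 1 downward (Dhrs3), beside 2.81% and 3.81% of all genes, with a median of 0.10 against -0.03 over all genes. Rarres2, which encodes the chemoattractant chemerin, read 8.90 and 8.37 in vitro (control, deleted) and 7.33 and 9.22 in vivo, a difference of 1.89 in vivo (3.70-fold higher) and -0.53 in vitro. A second probe set gave 2.05 and -0.75, and the third was near background. The first 2 are of a kind that can match several transcripts, and without such probe sets Rarres2 did not pass the cutoff. Tgm2, a protein-crosslinking transglutaminase, read 9.15 and 9.08 in vitro and 6.43 and 8.08 in vivo. Its difference was 1.65 in vivo (3.15-fold higher), with 0.94 to 1.77 over its 4 other probe sets above the cutoff, and -0.08 in vitro. For both genes the in vivo control was the lowest of the 4 arrays. In vitro 7 of the 8 target genes lay below 0, with a median of -0.31 against -0.06 over all genes, and none reached 2-fold. The share of all genes below 0 was not counted. Only Cyp26b1 (-0.68) and Rarres2 (-0.53) were below 0 by more than the pooled probe set SD of 0.48, and Nrip1 (0.53) was above 0 by more than it. Tgm2 ran from -0.37 to 0.57 over its probe sets above the cutoff, and Nrip1 from -0.34 to 0.79. No shared fall of the target genes is read from these values. The in vitro control also had the larger 3′ over 5′ excess of that pair, 1.11 against 0.40 for Actb and 3.16 against 2.01 for Pcx, and its part in these values was not tested.

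**Figure D3:**
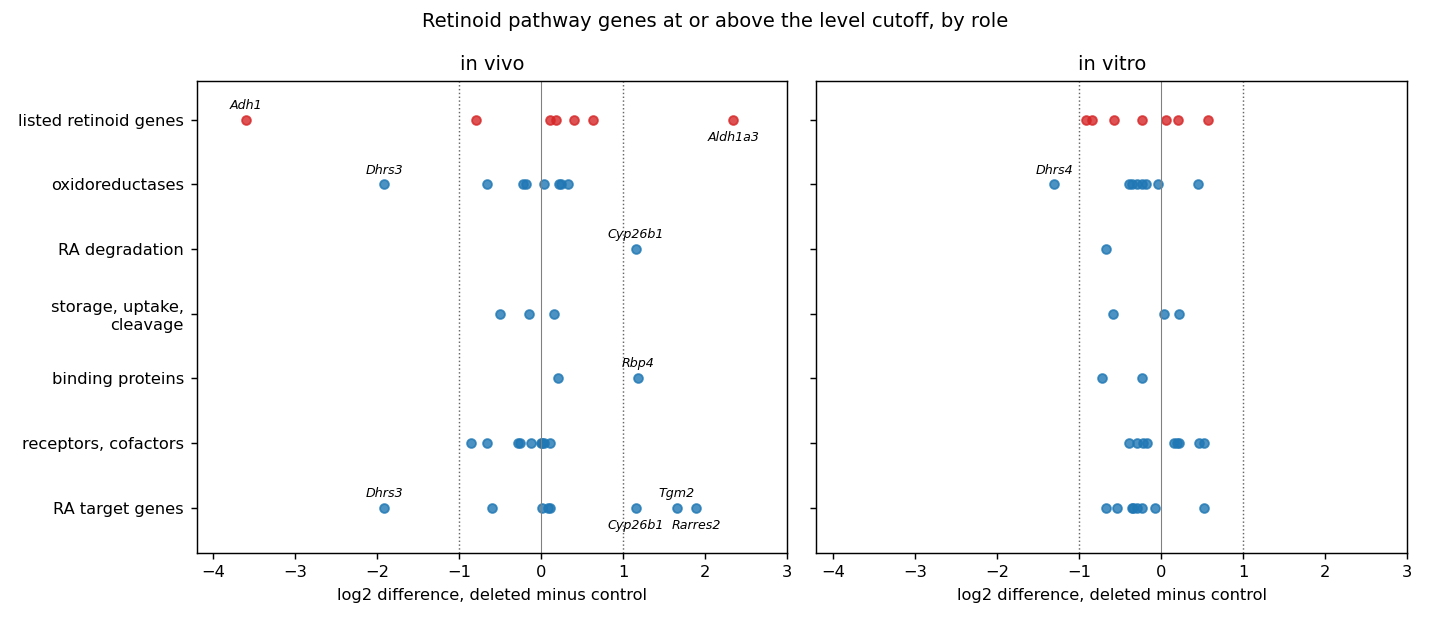
Log2 difference, deleted minus control (horizontal axis), of every listed gene whose brightest probe set passed the cutoff, by role (rows), in vivo on the left and in vitro on the right; dotted lines mark 2-fold and genes beyond them are named. Adh1 and Dhrs3 lie to the left in vivo, Aldh1a3, Cyp26b1, Rbp4, Tgm2 and Rarres2 to the right, and in vitro only Dhrs4 passes 2-fold. Genes in 2 lists appear in both rows.

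The genes whose pattern over the 4 arrays was nearest to that of Adh1 were found by the Euclidean distance between log2 values centred on each gene's mean, among the 10916 genes. They were Itgbl1 (distance 0.65), an integrin-beta-like secreted protein, Sema3a (0.76), a secreted guidance factor, Col14a1 (0.79), a fibril-associated collagen, Dapk1 (1.0), a death-associated kinase, and Chodl (1.01), a membrane lectin. Their in vivo differences were -3.61, -2.68, -3.03, -2.38 and -2.42. In vitro they were -0.01, -0.32, 0.07, -0.19 and -0.79. Probe sets of Sema3a ranged from -2.68 to -0.04 in vivo and those of Col14a1 from -3.03 to 0.03. With 4 points per gene, of which 1 dominates, the likeness describes these arrays.

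**Figure D4:**
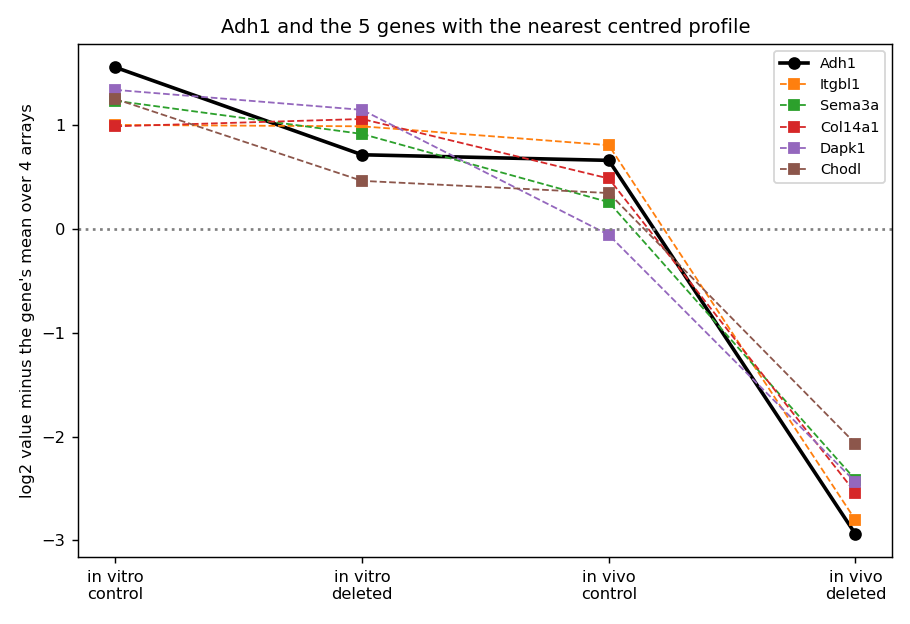
Log2 value minus the gene's mean over the 4 arrays (vertical axis) on each array (horizontal axis, 1 array per group) for Adh1 (black) and the 5 genes nearest to it (dashed). All 6 profiles are lowest in the in vivo deleted array, and Adh1 and Chodl differ most between the deleted and the control culture, at -0.84 and -0.79.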

How the data were processed

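The values are the authors' deposited log2 expression values for 45101 probe sets on 4 arrays, from 2.87 to 13.79, with 0 missing; the log2 scale was read from that range, and the software, background correction and normalization are not given in the sources used here. Values were quantile normalized over the 4 arrays (limma 3.58.1, R 4.3.3), since their upper quartiles ran from 6.91 to 7.18. Gene names came from the platform's annotation table: 34958 had 1 gene symbol, 932 had several and were not named, and 9211 were unnamed here. Of the single-gene probe sets 34741 matched RefSeq (GRCm38.p6) by gene ID. The brightest probe set stood for a gene, and the level filter, at the 40th percentile of gene means, left 10916 of 18193 genes. The threshold for a count was 2-fold.

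The listed genes and gene lists were chosen with earlier results of these data known. No test was made within a system, for want of replicates, and a deletion effect pooled over both systems was not tested, because it would use the in vivo difference that chose the genes. Named were all 9 genes, pathway genes at least 2-fold different in either comparison, the brightest gene of each list, the 5 nearest profiles to Adh1 and up to 3 markers per cell type by in vivo difference. Aldh1a7, Cyp26a1 and the keratinocyte markers that were not at least 2-fold higher in vivo were named after their values were seen. Macrophage, endothelial, and melanocyte and Schwann cell markers had in vivo medians of -0.01, 0.26 and 0.01 without the level filter. The adipocyte markers had one of 0.13, with Lpl at -0.77 and Adipoq at 0.70. Cell type markers are also counted without that filter, since some passed it only through the in vivo deleted array. As alternatives 10 other settings were tried, and 1 more, a level filter on the controls alone, was chosen after seeing the data.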

Additional observations from a re-analysis of the deposited data

Results flagged for a closer look

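Among the 7 listed and 28 other pathway genes analysed, 4 lay on opposite sides of 0 in the 2 systems. Each did so by more than the pooled SD between probe sets of 1 gene (0.28 in vivo, 0.48 in vitro, log2). The share of all genes that did so was not counted, so the count is not read as a trait of the pathway. With 1 array per group these differences between the systems were not tested. Crabp2 was at 0.63 in vivo and -0.57 in vitro, with both in vitro values under the level cutoff; with a linear offset before log2 its in vitro value was -0.37, inside that SD. Cyp26b1 was at 1.16 in vivo and -0.68 in vitro. Rbp4 was at 1.18 in vivo and -0.73 in vitro, and Rarres2 at 1.89 in vivo and -0.53 in vitro. The median of the 15 keratinocyte markers with a probe set had the same pair of signs, at 3.09 in vivo and -0.49 in vitro. So did the 12 skeletal muscle markers, with medians of 1.80 and -0.34. The part of both in these differences, and that of the in vitro control's 3′ over 5′ excess, was not tested.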

How the results depend on the processing

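No paired analysis was possible because each group has 1 array and the labels carry no replicate numbers. Nor could a replicate be left out. Of the listed and other pathway genes at least 2-fold different, none changed sign in that comparison under the alternatives that gave it a value. With the level filter at the 60th percentile, 4 of the 9 genes were left, 0 of them at least 2-fold higher in vivo, and their in vivo median was -0.31. Taking each gene's median over its probe sets, 0 other pathway genes were at least 2-fold lower in vitro (Dhrs4 was at -0.82), Adh7 stood at -0.28 and Aldh1a3 at 1.41 in vivo, and Rarg at 0.89 in vitro. A linear offset before log2 gave -3.18 for Adh1 and 1.93 for Aldh1a3 in vivo, and -1.61 for Dhrs3. Without probe sets that can match several transcripts Tgm2 was at 1.21 in vivo and Rarres2 did not pass the cutoff. In that setting 3 other pathway genes were at least 2-fold higher in vivo. At 1.5-fold, 2 listed genes were lower and 2 higher in vivo and 2 lower in vitro, and 5 other pathway genes were lower in vivo and 3 in vitro. At 3-fold, 2 other pathway genes were higher in vivo and 0 lower in vitro. The shares of all genes at 1.5-fold and at 3-fold were not counted, so nothing about the pathway is read from the counts at these thresholds. The other 96 counts and medians and 223 single-gene values stayed within the limits set for them. The limit was a factor of 1.5 for a count and the pooled probe set SD for a median or single-gene value. Many single-gene values could not move, because a level filter does not alter a gene's difference. Nor does the choice among probe sets for a gene with only 1. The number that stayed is therefore no measure of robustness. Signal close to background limits Rarb, Aldh1a2, Crabp2 in vitro, and Aldh1a1 and Aldh1a3 in vivo. Adh1 and Dhrs3 stood just over the cutoff in the in vivo deleted array, so the sizes of their in vivo differences are not exact.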
